A study of Mus musculus with 2 samples.

Results

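Clk1, Clk2, Clk3, Clk4, Srpk1, Srpk2 and Srpk3 encode the protein kinases best known for phosphorylating SR proteins, and all 7 were found by symbol among the 32285 genes counted. SR proteins are splicing factors that bind pre-mRNA and carry a tail rich in arginine and serine, and phosphate on this tail sets where the protein sits and whether it can take part in splicing. SRPKs act mainly in the cytoplasm, where a phosphorylated tail is recognised by the importer Tnpo3, and CLKs act in the nucleus, where further phosphate releases SR proteins from nuclear speckles. SRPK3 is known as a muscle form, and Clk transcripts are themselves spliced in several ways, with introns kept in part of them.

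The cells came from the trunks and limbs of decapitated, eviscerated E14 mouse embryos and were sorted on tdTomato (tdT), a red fluorescent reporter switched on by Cre. Each genotype was sequenced as 1 10x Genomics 3′ library: SRSF2f/f/Myf5-Cre/tdT, with both Srsf2 alleles floxed, and SRSF2f/w/Myf5-Cre/tdT, with 1 floxed and 1 wild-type allele. Both carry Cre under Myf5, a gene of early muscle progenitors, together with the reporter, so that every cell here lies inside the tdT gate and shares of cell types are shares of that gate. How many embryos gave each library is not stated in the sources used here.

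The titles of the samples give these genotypes, whereas the names of the deposited summaries and the headings of the study's quality pages give the opposite ones. Srsf2, the floxed gene, was at 219 per 1000000 UMIs (CPM; 95% Poisson interval 217 to 221) in the library labelled f/f and at 153 (151 to 155) in the library labelled f/w, and cells with skeletal muscle markers made up 15.4% and 0.928% of the kept cells. The study reports that muscle cells were a far smaller share of its mutant cells than of its control cells. Both the Srsf2 level and the muscle share here go against the titles. The cell numbers that the study states leave more mutant than control cells after its filter, but as printed they do not add up to its stated total. Here the library labelled f/f had more kept cells, 12523 against 10345, which goes with the titles. The study also reports larger shares of neural, endothelial and immune cells in the mutant. Cells with markers of these types made up 4.28%, 2.99% and 0.974% labelled f/f. They made up 9.72%, 9.04% and 5.80% labelled f/w, which goes against the titles. The libraries are therefore named by their labels below, and any direction between genotypes turns around if the labels are exchanged. After filtering, 12523 cells (median 10751 UMIs) of the library labelled f/f and 10345 cells (median 9480 UMIs) of the library labelled f/w were kept. The libraries share 74 barcode sequences.

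Cells were given a type from fixed marker lists: skeletal muscle (SKM-like), mesenchyme (Mesen-like), cartilage (Chon-like), bone (Osteo-like), neural (Neu-like), Schwann (Sch-like), endothelium (Endo-like), immune (Immu-like), epithelium (Epi-like), pericyte (Peri-like) and erythroid (Ery-like). No kinase is on these lists. In each library 19.7% of kept cells met no list, among them cells with mixed markers. With 1 library per genotype nothing can be tested between genotypes. All intervals are 95% intervals from the counts alone, and they say nothing of the spread between embryos.

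Over all kept cells, Clk1 gave 32287 UMIs in the library labelled f/f and 32642 in the library labelled f/w. Clk2 gave 2243 and 1691, Clk3 5114 and 5007, and Clk4 7921 and 7786. Srpk1 gave 13416 and 10957 UMIs, Srpk2 17179 and 15912, and Srpk3 265 and 42. A UMI stands for 1 captured transcript end whatever the length of the transcript, but how well each gene's end is captured is unknown, so the level of each kinase is compared across cells. Shares of a family's UMIs are given to compare cell types, and they carry the same limit.

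**Figure D1:**
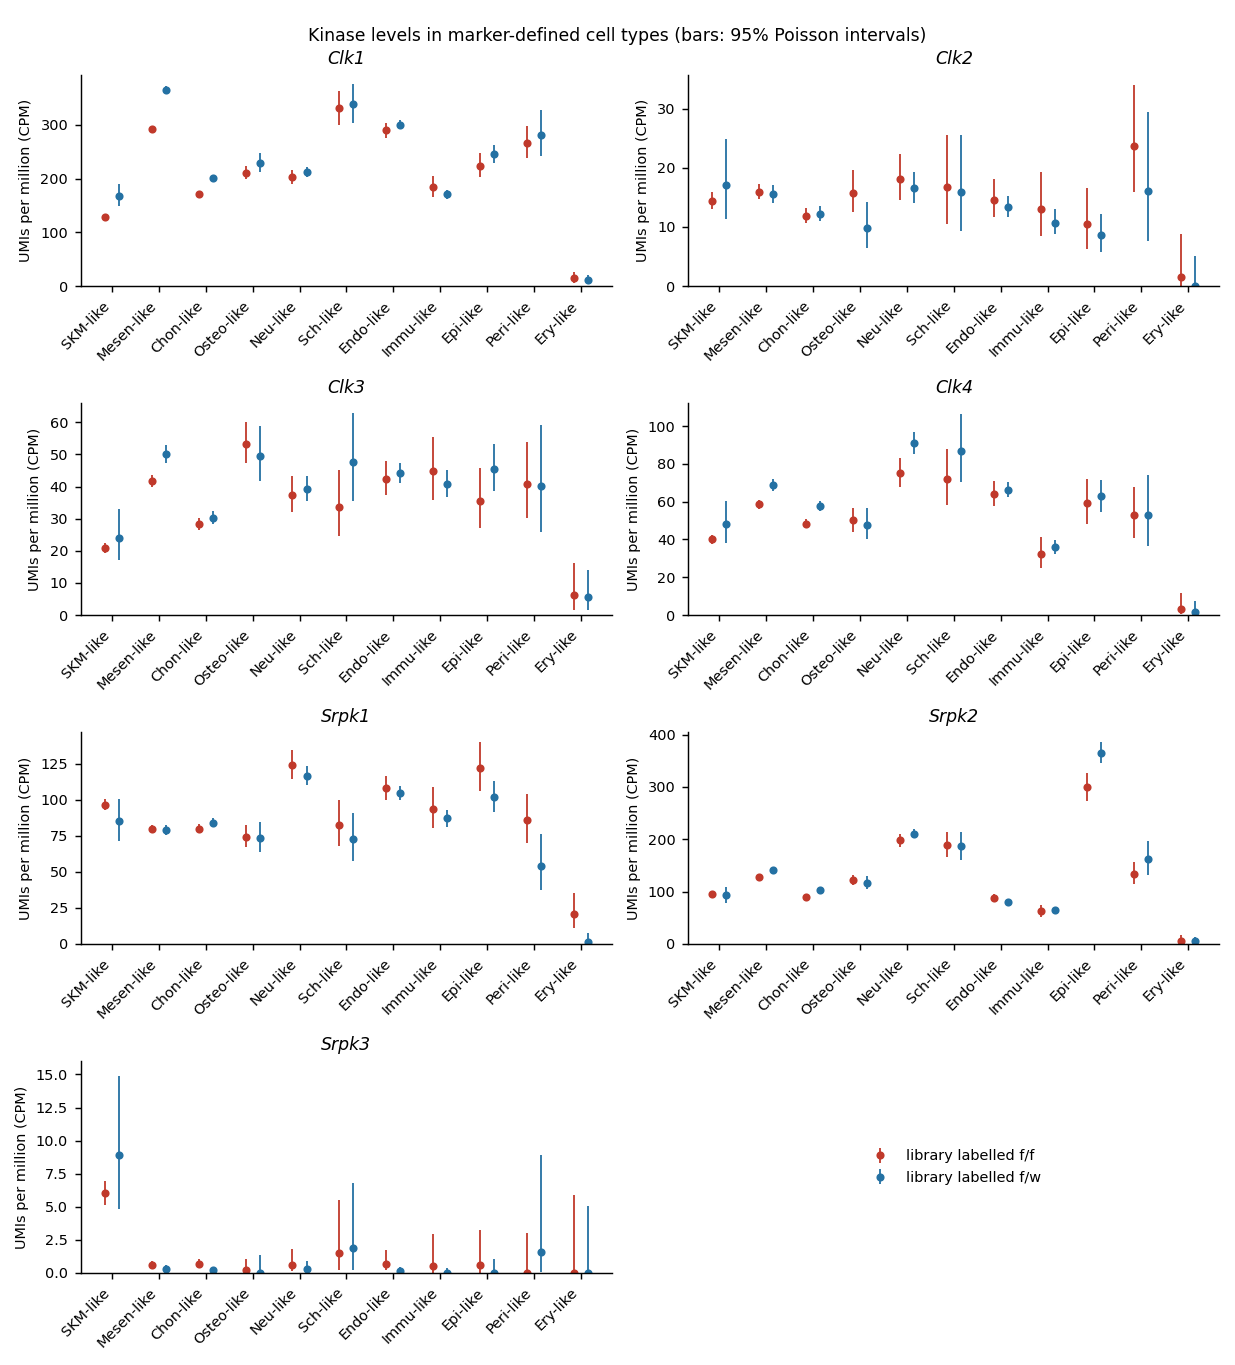
CPM of each kinase (vertical axes, from 0) in 11 marker-defined cell types of the library labelled f/f (red) and the library labelled f/w (blue), with 95% Poisson intervals. Srpk3 stands out in SKM-like cells and Srpk2 in Epi-like cells. Clk1 and Clk3 are lowest in SKM-like cells outside Ery-like cells, but labelled f/w the interval there takes in the next type. Srpk1 varies least outside Ery-like cells when both libraries are summed.

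Srpk3, the muscle SRPK, was highest in SKM-like cells of both libraries. Its level there was 6.01 CPM (5.16 to 6.96; 177 UMIs in 1932 cells) in the library labelled f/f and 8.89 CPM (4.86 to 14.9; 14 UMIs in 96 cells) in the library labelled f/w. In all other cells it was 0.721 CPM (0.578 to 0.888) and 0.231 CPM (0.153 to 0.333). SKM-like cells thus stood 8.34-fold (6.42 to 10.9) and 38.5-fold (18.8 to 75.7) above the rest of their own library. With both libraries summed, SKM-like cells held 62.2% of Srpk3 UMIs and the fold was 12.9; 1.57% of the 14478 genes with at least 200 UMIs were at least 4 times higher in SKM-like cells than in the rest. Srpk3 in its highest type stood 15.3 times above its median type, and 32.6% of genes reach 4 times.

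Srpk3 was sparse even in muscle. A UMI was seen in 5.69% of SKM-like cells (4.70 to 6.82) labelled f/f and 9.38% (4.38 to 17.1) labelled f/w, against 0.755% and 0.273% of other cells. The median depth was 14420 and 15780 UMIs in SKM-like cells and 9860 and 9423 UMIs in the others. After each cell was thinned to 2000 UMIs the shares were 1.04% (0.635 to 1.60) and 4.17% (1.15 to 10.3) in SKM-like cells, and 0.180% and 0.0632% in other cells, left after 604 and 750 shallower cells were left out. In Immu-like cells (median 12881 and 14412 UMIs), which should lack the gene, 1 of 122 cells labelled f/f had a UMI (0.820%, 0.0208 to 4.48), as did 0 of 600 cells labelled f/w, which allows a share of up to 0.500%. Ery-like cells were listed at 0 in both libraries, with a limit of 4.77 and 4.11 CPM from 3 counts.

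Outside SKM-like cells, transcripts of 4 other muscle genes (Myog, Mylpf, Myod1 and Chrna1) were also found, at a summed 71.0 CPM in the library labelled f/f and 15.9 CPM in the library labelled f/w, with none of the 4 at 0. Myog, Myod1 and Chrna1 are also markers of the type, so that the split of the cells depends on them. Cells without a type had 183 CPM of the 4 genes labelled f/f and 55.8 CPM labelled f/w, more than any typed group outside muscle. In SKM-like cells they reached 1211 and 1908 CPM. Srpk3 gave 4.96 UMIs (4.26 to 5.75) and 4.66 UMIs (2.54 to 7.83) per 1000 UMIs of these genes in SKM-like cells, and 10.2 (8.14 to 12.5) and 14.5 (9.62 to 21.1) in the other cells. Cells outside SKM-like cells are low in the marker genes by the way they were picked, which by itself raises this ratio there. The part of free muscle RNA in the Srpk3 counts of other cells was not tested. Of the cells with an Srpk3 UMI, 57.9% of 190 labelled f/f and 24.3% of 37 labelled f/w were SKM-like. Of those outside SKM-like cells, 37.5% of 80 and 7.14% of 28 held a UMI of at least 1 muscle marker, against 26.4% and 4.13% of all cells outside SKM-like cells.

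Srpk3 lies on the X chromosome (GRCm38 chrX:73774405-73778925, plus strand). Its RefSeq promoter window, 250 bases before to 50 after the start, is printed because SKM-like cells are, with both libraries summed, the highest type for Srpk3 alone among the 7 kinases. Capitals mark CAGCTG and a match to the MEF2 consensus. CAGCTG is a form of the E-box (CANNTG, with any base at N), the kind of site bound by MyoD and Myog. Other forms of the E-box were not counted. Both marked motifs read the same on either strand, and the matches do not overlap.
Srpk3 promoter, GRCm38.p6 chrX:73774155-73774454, plus strand: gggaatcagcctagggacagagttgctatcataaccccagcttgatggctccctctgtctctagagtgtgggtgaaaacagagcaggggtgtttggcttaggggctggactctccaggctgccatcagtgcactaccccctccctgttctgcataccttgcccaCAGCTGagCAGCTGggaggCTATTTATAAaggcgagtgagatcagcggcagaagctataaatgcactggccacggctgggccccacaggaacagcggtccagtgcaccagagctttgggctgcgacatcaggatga
Of 32851 promoter windows of this length, 16.3% hold CAGCTG, 1.9% hold it 2 or more times and 3.19% hold a MEF2 match. CAGCTG 2 or more times together with a MEF2 match is found in 19 windows (0.0578%). The 7 windows found for Clk2, Clk3, Clk4, Srpk1 and Srpk2 hold neither CAGCTG nor a MEF2 match. Other E-box forms are among their letters, such as CAGGTG in the Srpk1 window and CACCTG in the Clk4 window. The combination of CAGCTG 2 or more times with a MEF2 match is the one that the Srpk3 window holds, so its share tests nothing. A match is a description of letters and not a measured site.

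Srpk2, which is known from the nervous system, was highest in Epi-like cells of both libraries. It reached 299 CPM (274 to 326) in the 99 Epi-like cells labelled f/f and 365 CPM (345 to 385) in the 148 labelled f/w, 2.69-fold (2.46 to 2.94) and 2.97-fold (2.81 to 3.15) above the rest of each library. A UMI of Srpk2 was found in 93.9% and 93.2% of these cells. Neu-like cells came next, at 198 and 211 CPM, and Sch-like cells at 189.7 and 186 CPM. With both libraries summed, these 2 types were not apart within their counting intervals. Immu-like cells had the lowest level outside Ery-like cells, 62.7 and 64.1 CPM, with Endo-like cells above them at 87.7 and 79.9 CPM. SKM-like cells had 94.8 CPM (91.3 to 98.4) and 93.4 CPM (78.9 to 109.7), near Chon-like cells. The highest type was 2.85 times the median type for Srpk2. With Srpk3 it was 1 of 2 kinases to reach 2 times, as 61.8% of genes do.

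Srpk1, the widely expressed SRPK, was the most even of the 7 with both libraries summed. Outside Ery-like cells, its highest type (Neu-like, 119 CPM with both libraries summed) stood 1.61-fold above its lowest (Osteo-like, 74.2 CPM). Of genes with at least 200 UMIs, 2.09% spanned less. That share is not matched for level, and genes with few UMIs can span more from counting alone. In the library labelled f/w alone the lowest type of Srpk1 was Peri-like cells, at 54.4 CPM from 34 UMIs. Its span there was wider than those of Clk2 (17.1 to 8.60 CPM) and Clk3 (50.04 to 24.1 CPM). Neu-like cells had 124 CPM (115 to 135) labelled f/f and 117 CPM (110.2 to 124) labelled f/w. Epi-like cells had 122 and 102 CPM, and the 2 types were not apart with both libraries summed. SKM-like cells had 96.8 CPM (93.3 to 100.4) and 85.1 CPM (71.3 to 101), and with both libraries summed Immu-like, Chon-like and Mesen-like cells came after them.

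The split between Srpk1 and Srpk2 moved with cell type, as the plot of family shares shows. Srpk1 took 29.0% of all Srpk UMIs in Epi-like cells labelled f/f and 21.9% in those labelled f/w. In Sch-like cells it took 30.2% and 28.0%, and in Mesen-like cells 38.2% and 35.8%. In Endo-like cells it took 55.1% (52.2 to 57.9) and 56.7% (54.9 to 58.4), and in Immu-like cells it took 59.8% (54.0 to 65.4) and 57.6% (55.0 to 60.2). SKM-like cells lay between, at 49.0% (47.7 to 50.3) and 45.4% (39.6 to 51.3), with Srpk3 adding 3.04% and 4.75%.

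**Figure D2:**
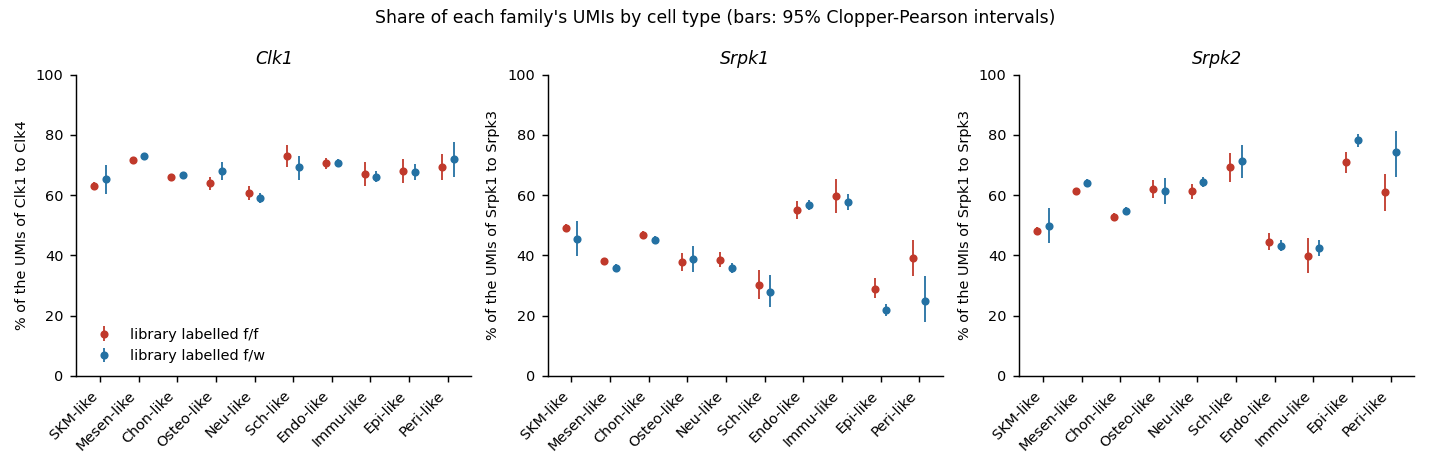
Percent of the UMIs of the 4 Clk genes that came from Clk1 (left) and of the 3 Srpk genes that came from Srpk1 (middle) and Srpk2 (right), by cell type and library, with 95% Clopper-Pearson intervals and axes from 0 to 100%. Clk1 holds 59.2% to 73.1% in every type drawn, whereas Srpk1 goes from 21.9% to 59.8%.

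Clk1, a nuclear kinase that also shapes the splicing of its own transcript, was lowest in SKM-like cells apart from Ery-like cells, in both libraries. It reached 128 CPM (124 to 132) in SKM-like cells labelled f/f and 168 CPM (148 to 189) in those labelled f/w. This was 0.548-fold (0.530 to 0.567) and 0.628-fold (0.555 to 0.709) of the rest of each library. Immu-like cells labelled f/w, at 171 CPM, lay inside the interval of SKM-like cells of that library, so the lowest place is uncertain there. The highest levels were in Sch-like cells (330.5 and 338 CPM) and Mesen-like cells (292 and 365 CPM), which were not apart from each other with both libraries summed, followed by Endo-like cells (289 and 299.9 CPM). With both libraries summed, Clk1 (0.520-fold) and Clk3 (0.538-fold) were the 2 kinases lower in SKM-like cells by more than the fold limit of 0.58 (log2). Clk4 was at -0.55 on this scale and passed the limit after thinning to 2000 UMIs (-0.73, -0.98 to -0.49). Within the libraries labelled f/f and f/w, the log2 values were -0.87 and -0.67 for Clk1 and -0.83 and -0.76 for Clk3. Clk4 was at -0.46 and -0.40. Most SKM-like cells were labelled f/f, so the summed folds also carry the ratio between the libraries. A lower level in muscle was common in the summed data, since 43.8% of genes were past that limit and the median gene was at 0.760-fold.

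Clk3 had the same low point. It was at 20.8 CPM (19.2 to 22.5) in SKM-like cells labelled f/f and 24.1 CPM (17.1 to 33.1) in those labelled f/w, against 36.9 and 40.9 CPM in the other cells. Its highest level was in Osteo-like cells labelled f/f, 53.3 CPM (47.2 to 60.0), while in the library labelled f/w Mesen-like cells (50.04 CPM) and Osteo-like cells (49.6 CPM) were level. Chon-like cells labelled f/w, at 30.3 CPM, lay inside the interval of SKM-like cells of that library. With both libraries summed, SKM-like cells were the lowest type outside Ery-like cells for 2 of the 7 kinases, Clk1 and Clk3, and for 16.2% of all genes.

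Clk4, the closest relative of Clk1, was highest in Neu-like cells, 75.1 CPM (67.6 to 83.3) and 90.9 CPM (85.1 to 97.0), and next in Sch-like cells, 71.9 and 87.1 CPM. Its lowest level outside Ery-like cells was in Immu-like cells, 32.4 and 35.9 CPM, and SKM-like cells had 40.03 and 48.3 CPM. Clk2, with the fewest UMIs of the Clk genes, changed in small steps from 21.1 CPM (15.0 to 28.9) in Peri-like cells to 9.22 CPM (6.80 to 12.2) in Epi-like cells with both libraries summed, and no type was apart from the next in order until Ery-like cells.

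Clk1 gave between 59.2% (Neu-like, labelled f/w) and 73.1% (Mesen-like, labelled f/w) of Clk UMIs in the 10 types other than Ery-like cells. The 4 genes together were at 203 and 257 CPM in SKM-like cells against 314 and 383 CPM over all cells, and the 3 Srpk genes were at 198 and 187 CPM in SKM-like cells against 204 and 219 CPM over all cells.

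In Ery-like cells the kinases gave few UMIs. In 57 cells labelled f/f (median 10308 UMIs) and 62 labelled f/w (median 11614 UMIs), the 4 Clk genes gave 16 and 13 UMIs and the 3 Srpk genes 17 and 5. Clk1 was at 14.3 CPM (6.54 to 27.2) and 10.96 CPM (4.73 to 21.6), and Srpk1 at 20.7 CPM (11.002 to 35.3) and 1.37 CPM (0.0347 to 7.63).

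The genes with the most similar pattern were ranked by Pearson's r of log2(CPM + 1) over 22 points, 11 types in each library, among 14477 genes. For Srpk3 they were Musk (r = 0.92), a kinase of the neuromuscular junction, Stac3 (0.91), a part of the excitation-contraction coupling machinery, and Actn2 (0.90), a protein of the Z disc. These values were 0.92, 0.90 and 0.89 without the Ery-like points. The SKM-like points, at 6.01 and 8.89 CPM of Srpk3 against at most 1.87 CPM in any other type, were kept in. For Srpk3, r without the SKM-like points was not computed. For Srpk2 they were Chd6, Smim13 and Ppp2r3a, all at 0.97 and between 0.83 and 0.87 without the Ery-like points. For Clk1 they were Rab5a, Pcf11 and Yy1, at 0.98 to 0.99, and 0.74 to 0.86 without those points. Those for Clk2 were Caprin1, Hikeshi and Rexo1 (0.98, and 0.73 to 0.81 without the Ery-like points), those for Clk3 Map4k3, Itm2b and Saraf (0.96 to 0.97, and 0.77 to 0.80), those for Clk4 Hnrnpa0, Zmym5 and Eif4g2 (0.99, and 0.87 to 0.93) and those for Srpk1 Zfp511, Emc6 and Eif4a1 (0.98, and 0.62 to 0.76). Between the kinases themselves r was 0.97 for Clk1 and Clk4 and 0.95 for Clk1 and Clk3, and 0.63 for both pairs without the Ery-like points. The points share libraries and depth, and r is given as a description.

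The targets of these kinases showed another order. With both libraries summed, 7 of 13 SR protein and Tra2 genes (Srsf1, Srsf2, Srsf3, Srsf4, Srsf6, Srsf7 and Srsf10) had their highest level in SKM-like cells. So did 1 of the 7 kinases, Srpk3, and 11% of all genes. The median SR protein gene was at 1.19-fold in SKM-like cells over the rest, the median kinase at 0.765-fold and the median gene at 0.760-fold. Tnpo3, which imports phosphorylated SR proteins, was at 1.28-fold. Of 6 other kinases that act on splicing factors, none was highest in SKM-like cells. The 5 catalytic subunits of the phosphatases PP1 and PP2A, which remove phosphate from SR proteins, had a median of 0.828-fold. All these folds sum the libraries. Most SKM-like cells were labelled f/f, where Srsf1, Srsf2 and Srsf4 were also higher over all cells (log2 ratios 0.43, 0.52 and 0.46). The folds therefore also carry the ratio between the libraries.

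Proliferation was followed by Mki67 and Top2a, made in dividing cells. Cells with at least 2 UMIs of the pair were called cycling and cells with none non-cycling. Cycling cells were deeper, with a median of 16415 against 11857 UMIs in SKM-like cells labelled f/f, and CPM is scaled to the UMIs of the same cells.

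Srpk1 was higher in cycling cells of all 3 types examined. In SKM-like cells labelled f/f it was at 113 CPM in 1138 cycling cells and 61.7 CPM in 510 non-cycling cells, a log2 ratio of 0.87 (0.72 to 1.03), and in those labelled f/w at 104 and 55.5 CPM, a log2 ratio of 0.91 (0.24 to 1.63). In Mesen-like cells the ratios were 0.50 (0.39 to 0.61) and 0.26 (0.13 to 0.40), and in Chon-like cells 0.44 (0.32 to 0.56) and 0.33 (0.21 to 0.45). With both libraries summed, 86.6%, 86.4% and 80.7% of genes had a lower ratio in the 3 types. In SKM-like cells Srpk1 and Srpk3 were the 2 kinases past the fold limit, where 33.3% of genes pass it in either direction. Clk3, at 0.44 with both libraries summed, passed it at a mitochondrial limit of 5% (0.66, 0.26 to 1.08) and after thinning to 2000 UMIs (0.73, -0.12 to 1.66). No kinase passed it in Mesen-like cells (14% of genes) or Chon-like cells (15.1% of genes).

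**Figure D3:**
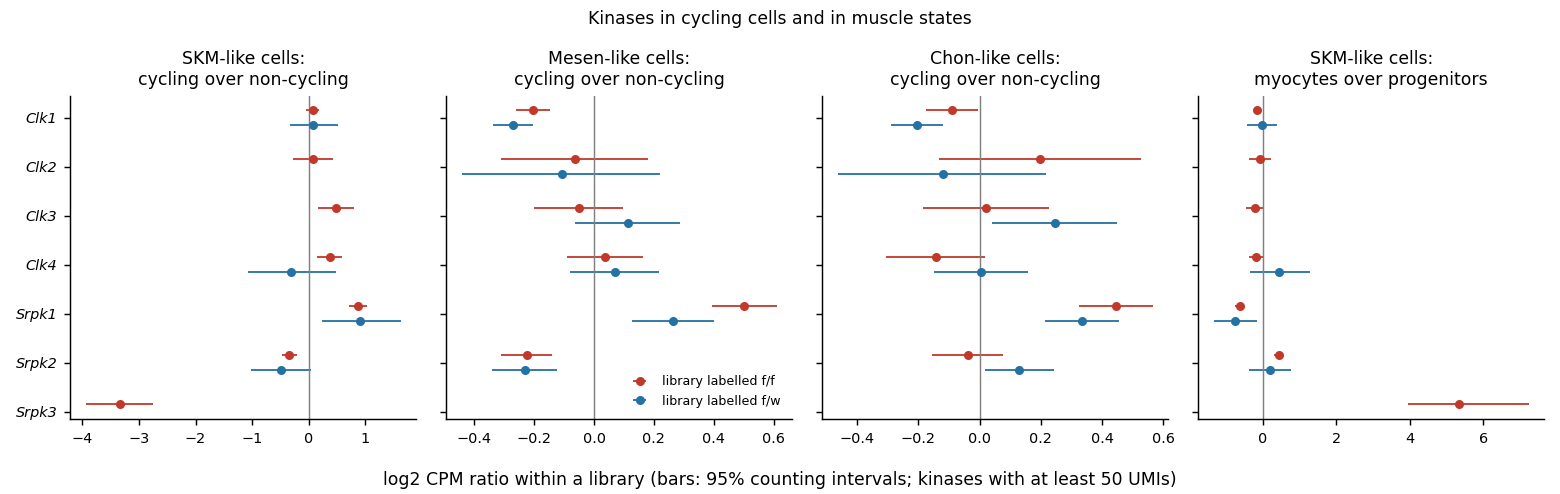
Log2 ratios of CPM within the library labelled f/f (red) and the library labelled f/w (blue), with 95% counting intervals, for cycling over non-cycling SKM-like, Mesen-like and Chon-like cells and for myocytes over progenitors. Srpk1 lies right of 0 in all 3 cycling panels and left of 0 in myocytes, whereas Srpk3, drawn for the library labelled f/f, lies at -3.33 and 5.34 in the outer panels. Kinases with under 50 UMIs in a comparison are not drawn, and horizontal scales differ between panels.

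Srpk3 was lower in cycling muscle cells. In the library labelled f/f it gave 33 UMIs (1.69 CPM) in cycling and 107 UMIs (17.0 CPM) in non-cycling SKM-like cells, a log2 ratio of -3.33 (-3.94 to -2.76), and in the library labelled f/w 2 and 6 UMIs.

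Srpk2 was lower in cycling cells of 2 types. It was lower in cycling SKM-like cells, at 88.3 against 112 CPM labelled f/f (log2 ratio -0.34, interval -0.47 to -0.21) and 85.7 against 121 CPM labelled f/w (-0.49, -1.01 to 0.04). In Mesen-like cells the ratios were -0.23 (-0.31 to -0.14) and -0.23 (-0.34 to -0.12), and in Chon-like cells -0.04 (-0.16 to 0.08) and 0.13 (0.02 to 0.24).

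Among the Clk genes, Clk1 was at 0.07 (-0.05 to 0.19) and 0.09 (-0.33 to 0.52) in cycling over non-cycling SKM-like cells, and lower in cycling Mesen-like cells, at -0.20 (-0.26 to -0.15) and -0.27 (-0.34 to -0.20), and Chon-like cells, at -0.09 (-0.18 to -0.01) and -0.20 (-0.29 to -0.12). Clk3 and Clk4 were higher in cycling SKM-like cells labelled f/f, by 0.48 (0.17 to 0.81) and 0.37 (0.15 to 0.60), while the few cells labelled f/w gave -0.10 and -0.31 with intervals that span 0. The intervals of Clk2 span 0 in all 3 types.

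In muscle, progenitors were SKM-like cells with a Pax7 UMI and at most 1 Myog UMI, and myocytes those with at least 5 Myog UMIs. Both names stand for these limits alone. Pax7 marks muscle progenitors, and Myog is a transcription factor of differentiating muscle cells. There were 787 progenitors and 890 myocytes labelled f/f, and 27 and 52 labelled f/w. Srpk3 was higher in myocytes: 173 UMIs against 4 in progenitors labelled f/f, 13.1 against 0.322 CPM, a log2 ratio of 5.34 (3.96 to 7.23). Labelled f/w it gave 14 UMIs against 0. With both libraries summed the fold was 42.8 (16.4 to 159), above 99.5% of genes, while 37.1% of genes passed the fold limit in either direction.

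Srpk1 and Srpk2 moved in opposite directions between these states. Srpk1 was at 115 CPM in progenitors and 74.1 CPM in myocytes labelled f/f (log2 ratio -0.63, -0.75 to -0.51), and at 106 and 63.0 CPM labelled f/w (-0.75, -1.34 to -0.16). Srpk2 was at 81.3 CPM in progenitors and 109.6 CPM in myocytes labelled f/f (0.43, 0.31 to 0.55), and at 84.9 and 96.3 CPM labelled f/w (0.18, -0.38 to 0.77). Clk1 differed by -0.15 (-0.25 to -0.05) and -0.02 (-0.42 to 0.40), and Clk2, Clk3 and Clk4 had log2 ratios of -0.08, -0.21 and -0.19 in the library labelled f/f. Srpk1 and Srpk3 were past the fold limit with both libraries summed; after each cell was thinned to 2000 UMIs, Srpk1 was at -0.48 (-0.81 to -0.15) and Srpk2 at 0.71 (0.38 to 1.04).

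State and proliferation overlapped, since 74.7% of progenitors and 41.1% of myocytes labelled f/f were cycling. The name myocyte here therefore does not mean a cell that has left the cell cycle. Srpk3 was at 4.49 CPM in cycling and 22.9 CPM in non-cycling myocytes labelled f/f. Within non-cycling cells with both libraries summed, Srpk1 was at 56.0 CPM in 386 myocytes and 76.9 CPM in 107 progenitors (-0.46, -0.80 to -0.11). Srpk2 was at 120.3 and 94.1 CPM (0.35, 0.06 to 0.65), and Srpk3 gave 113 and 0 UMIs. Of these progenitors 103 were labelled f/f. The 4 labelled f/w gave ratios of opposite sign for Srpk1 (1.41, -1.25 to 6.78) and Srpk2 (-0.99, -2.03 to 0.18), with intervals that span 0. Within myocytes, also summed over the libraries, cycling over non-cycling cells gave 0.75 (0.55 to 0.96) for Srpk1 and -2.32 (-2.94 to -1.73) for Srpk3. Within progenitors, summed in the same way, Srpk1 gave 0.64 (0.34 to 0.96). For Srpk2 the same ratio was -0.28 (-0.44 to -0.12) within myocytes and -0.22 (-0.51 to 0.07) within progenitors, where the interval spans 0. In the summed libraries, mostly cells labelled f/f, Srpk1 was thus higher in progenitors among non-cycling cells and higher in cycling cells within each state.

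Between the libraries, the largest ratio over all kept cells was that of Srpk3, 1.75 CPM labelled f/f against 0.342 CPM labelled f/w, a log2 ratio of 2.36 (1.88 to 2.86). It was the 1 kinase of 7 past the fold limit of 0.58, which 19.1% of 14478 genes passed. The number of muscle cells moved with it: 1932 against 96 SKM-like cells. Within SKM-like cells the ratio was -0.57 (-1.35 to 0.34), so that it was not apart from 0. No kinase passed the limit in SKM-like cells, while 21.8% of genes did. After thinning to 2000 UMIs, Srpk3 (-1.80, -3.35 to 0.19) and Clk4 (-0.92, -1.74 to 0.03) were past it there, with intervals that span 0. With equal weight to each cell type the Srpk3 ratio was -0.22, a value with no interval in which the 2 UMIs of Sch-like cells and the 1 UMI of Peri-like cells labelled f/w stand for types that weigh as much as muscle. Outside SKM-like cells it was 1.64 (1.02 to 2.31), where the 4 other muscle genes were also higher, at 71.0 against 15.9 CPM.

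**Figure D4:**
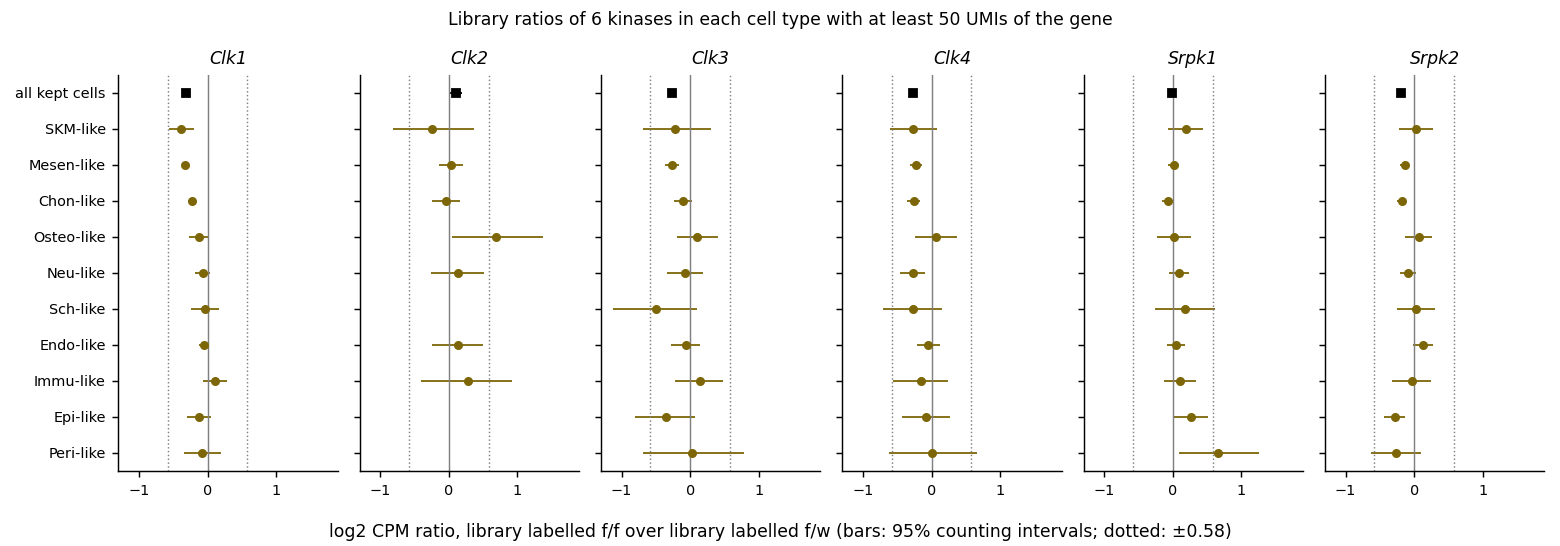
Log2 ratio of CPM, library labelled f/f over library labelled f/w, for 6 kinases over all kept cells (black squares) and in each cell type with at least 50 UMIs of the gene (circles), with 95% counting intervals and dotted lines at the fold limit of 0.58. Clk1 lies left of 0 in 9 of 10 types, and Srpk1, among the types, in Chon-like cells alone. On few counts 2 values, Clk2 in Osteo-like and Srpk1 in Peri-like cells, pass the limit, with no share of all genes given for these types.

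Clk1 was lower in the library labelled f/f, 213 against 266 CPM over all cells, a log2 ratio of -0.32 (-0.34 to -0.30). The median gene was at -0.02. Clk4 (52.3 against 63.3 CPM) had -0.28 (-0.32 to -0.23), Clk3 (33.7 against 40.7 CPM) -0.27 (-0.33 to -0.21) and Srpk2 (113 against 129 CPM) -0.19 (-0.22 to -0.16). Srpk1 was at 88.5 and 89.1 CPM (-0.01, -0.05 to 0.03), and Clk2, at 14.8 and 13.8 CPM, was the only Clk gene with a ratio above 0 (0.11, 0.01 to 0.20), which thinning to 2000 UMIs moved to -0.066. All 6 were within the fold limit.

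Within cell types, Clk1 was lower in the library labelled f/f in SKM-like cells (128 against 168 CPM, -0.39, -0.57 to -0.20), Mesen-like cells (292 against 365 CPM, -0.32, -0.36 to -0.28) and Chon-like cells (171 against 200.2 CPM, -0.23, -0.28 to -0.18), and the intervals of the other types span 0. In cells without a type it was at 218 against 306 CPM (-0.49, -0.54 to -0.43). In Endo-like cells the ratio was -0.05 (-0.13 to 0.03). Clk4 was lower in Mesen-like (-0.23), Chon-like (-0.26) and Neu-like cells (-0.27), and Clk3 in Mesen-like cells (-0.26, -0.37 to -0.16). Srpk2 was lower in Mesen-like (-0.14), Chon-like (-0.18) and Epi-like cells (-0.28). Srpk1 was lower labelled f/f in 1 of 11 types, Chon-like cells (79.9 against 84.2 CPM), and higher in the others. Its interval lay above 0 in Epi-like cells (122 against 102 CPM), Peri-like cells and Ery-like cells, the last on 13 against 1 UMI. In Mesen-like cells no kinase passed the fold limit, as 10% of 13824 genes did. Clk2 in Osteo-like cells (82 against 27 UMIs, 0.69, 0.05 to 1.38) and Srpk1 in Peri-like cells (105 against 34 UMIs, 0.66, 0.09 to 1.26) were past it, on few counts. The share of all genes past the limit in Osteo-like or Peri-like cells is not given here. These values are therefore not read as a result about the kinases.

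Stress genes also differed between the libraries. Fos, Fosb, Jun, Junb, Egr1, Atf3, Hspa1a and Hspa1b were summed, a list chosen after the counts were seen. Their level was 5269 CPM labelled f/f and 7074 CPM labelled f/w over all cells, and 9036 and 12636 CPM in Mesen-like cells. In SKM-like cells it was 1290 and 2479 CPM. The direction was the other way in Endo-like cells (5847 and 5548 CPM) and Immu-like cells (2231 and 1329 CPM). In Mesen-like cells at or under the median share of these genes, Clk1 was at 222 and 266 CPM (-0.26, -0.32 to -0.19), and above the median at 379.7 and 429 CPM (-0.18, -0.22 to -0.13). Clk1 was therefore higher in the cells rich in stress transcripts in both libraries, and both ratios were below 0 and smaller in size than the -0.32 of all Mesen-like cells. Clk2, Clk3, Clk4 and Srpk2 were also higher in these cells in both libraries, and Srpk1 was lower. The share of all genes higher in these cells is not given here, so this is not read as a result about the kinases. Up to and above the median, splits of Mesen-like cells by mitochondrial share gave Clk1 ratios of -0.34 and -0.28. Splits by UMIs per cell gave -0.25 and -0.37. Clk1 was also higher in the shallower Mesen-like cells, at 347 CPM labelled f/f and 411 CPM labelled f/w, against 266 and 343 CPM above the median. The part of stress or handling in the Clk1 ratio was not tested.

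Of the genes around the kinases, Dyrk3, a kinase that dissolves condensates of splicing factors in mitosis, had the lowest ratio (3.31 against 5.88 CPM, -0.83, -0.998 to -0.66) and Srsf2 itself the highest (0.52, 0.49 to 0.54). Among 13 SR protein and Tra2 genes none was past the limit, and 4 ratios were below 0, with a median of 0.08. Of the 6 other splicing-factor kinases 1, Dyrk3, was past it. Among the 5 phosphatase subunits none was past it and 4 ratios were below 0, with Ppp2cb at -0.47 (-0.51 to -0.42). Tnpo3 was at 0.31 (0.26 to 0.36). The kinases themselves had a median of -0.19, with 5 of 7 ratios below 0, as were those of 52.1% of all genes.

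All 7 genes were placed on GRCm38 by their identifiers. Clk1 lies at chr1:58410189-58424066 (minus strand), Clk2 at chr3:89164795-89176921 (plus), Clk3 at chr9:57750624-57765860 (minus), Clk4 at chr11:51261730-51281766 (plus), Srpk1 at chr17:28587648-28622709 (minus) and Srpk2 at chr5:23503264-23684617 (minus). Clk3 overlaps Edc3, Clk4 overlaps BC049762 and Srpk2 overlaps Kmt2e, each on the other strand, and Srpk2 also overlaps Gm43566 on its own strand, so that Srpk2 counts are uncertain there. The annotation lists 7 of 13 transcripts of Clk1 and 7 of 14 of Clk4 with a retained intron, and 3′ counts do not tell these forms apart.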

How the data were processed

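Both libraries were made with a 10x Genomics 3′ kit that tags each transcript end with a UMI. The authors deposited UMI counts per gene and barcode, made with Cell Ranger (5.0.0 in the file header, 3.1.0 in the submitters' processing notes) on mm10 without introns and aggregated after down-sampling reads, for 15268 and 12498 barcodes with 156093779 and 128116615 UMIs. The notes also name STAR and Seurat 3.1.1. Barcode suffixes were tied to samples by the number of cells in each sample's summary.

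Cells within 2 SD of the mean log10 UMIs and log10 genes of their library and with at most 10% mitochondrial UMIs were kept, which left 151555303 and 122938843 UMIs. A cell took a type when its marker UMIs reached 3 over 2 genes and 2 times every other list. No doublet caller was run, and cells with markers of 2 types stayed without one. UMIs were summed per library and type and divided by the sum of the same cells (CPM). Ratios carry conditional binomial, CPM exact Poisson and shares Clopper-Pearson intervals, all at 95%, which cover counting error only. Ratios are called past the fold at 0.58 (log2), the fold limit in the study's methods, for genes with at least 200 UMIs (50 within a type). The intervals of the library ratios were tested on simulated Poisson counts, the model that they assume. This checks the calculation and says nothing of the spread between cells or embryos. Named genes are the 7 kinases, the SR protein, kinase, phosphatase and importer lists, the highest and lowest of these, and the 3 genes of most similar pattern. The members and lists were chosen with earlier results of these data known.

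Promoter sequences are from RefSeq (GRCm38.p6), with 8 entries for 6 kinases, and gene positions from GENCODE M21, where 99.6% of identifiers matched. No test between genotypes was made, since each has 1 library. Python 3.11.15, NumPy 2.4.6, SciPy 1.17.1, pandas 2.3.3 and matplotlib 3.10.9 were used. Alternatives changed the cell filters, marker limits, denominator, depth and state limits.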

Additional observations from a re-analysis of the deposited data

How the results depend on the processing

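No paired analysis was possible because each genotype has 1 library. Of 501 values recomputed for 63 results under 14 settings, 397 lay inside the counting interval of the value reported, 103 outside it and 1 was reversed; of 399 log2 values, 8 had the opposite sign and 14 lay on the other side of the fold limit. Giving each cell type equal weight turned the Srpk3 library ratio from 2.36 to -0.22 and left Clk1 at -0.12, Clk2 at 0.20, Clk3 at -0.12, Clk4 at -0.16, Srpk1 at 0.17 and Srpk2 at -0.11; by construction it removes the difference in cell mix. Without SKM-like cells the ratios were -0.19 for Clk1, -0.15 for Clk3, -0.20 for Clk4, -0.14 for Srpk2 and 1.64 for Srpk3. After thinning to 2000 UMIs they were -0.066 for Clk2, -0.17 for Clk3, -0.13 for Srpk1, -0.14 for Srpk2 and 1.72 for Srpk3, Clk1 in SKM-like over other cells was -1.13, Srpk2 in Epi-like cells 1.42, and 34.5% of cells labelled f/f had a Clk1 UMI. Without mitochondrial, ribosomal protein and haemoglobin genes in the denominator Clk1 was -0.29, its SKM-like ratio -0.80 and Srpk2 in Epi-like cells 1.66. The share with a Clk1 UMI labelled f/f was 71.0% without 2 SD limits, 76.0% with pooled limits and 79.9% at a mitochondrial limit of 5%. Chosen after seeing the data, cells up to the median stress share gave -0.33 for Clk4, -0.11 for Srpk2 and -0.26 for Clk1 in Mesen-like cells, and cells above it -0.15 for Clk1, -0.16 for Clk3, -0.14 for Clk4, -0.16 for Srpk2, 1.41 for Srpk3 and -0.18 for Clk1 in Mesen-like cells. The cause of these shifts was not tested. Depth limits Srpk3 and the 96 SKM-like cells labelled f/w.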
